A study of Mus musculus with 17 samples.

Results

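The lung transcripts of 10 Toll-like receptor genes, *Tlr1* to *Tlr9* and *Tlr13*, were described in 17 mice that drank water with or without perfluorooctanoic acid (PFOA), a persistent fluorinated surfactant. The members were the rows of the gene count table that carry these symbols, and all 10 were found among its 31245 genes. The mice were wild type (WT, Sv/129, purchased), PPARα null (KO) or humanized PPARα (KI), the last carrying the human in place of the mouse form of this lipid-sensing nuclear receptor. KO and KI mice were bred together from PPARα-null and human PPARα heterozygous pairs, so genotype and breeding source cannot be told apart in a comparison with WT. From 6 weeks of age all mice ate a custom diet modelled on that of American adults, and for 14 weeks they drank 0.5% sucrose water without PFOA (vehicle) or with 6.2 μg/mL PFOA. The groups were WT vehicle (n = 2, 1 female and 1 male), WT PFOA (n = 3, 1 female and 2 males), KO vehicle (n = 3) and KO PFOA (n = 3), both all female, KI vehicle (n = 3, 2 females and 1 male) and KI PFOA (n = 3, 2 females and 1 male). Each library came from the whole lung of 1 mouse and is named here by its group and the animal number on its label.

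Toll-like receptors are membrane proteins that recognize microbial molecules. TLR1, TLR2, TLR4, TLR5 and TLR6 act at the cell surface on bacterial lipids and flagellin, while TLR3, TLR7, TLR8, TLR9 and TLR13 act in endosomes on nucleic acids. Most signal through the adaptor MyD88 to NF-κB and interferon regulatory factors, TLR3 signals through TRIF, and in the lung they are best known from macrophages, dendritic cells, B cells and epithelium. In whole-lung RNA, more cells of a type and more RNA per cell cannot be told apart.

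Library totals ranged from 4116116 to 9237385 counts, so that 3 counts were worth 0.325 to 0.729 CPM (counts scaled to library size with edgeR's TMM factors). All 10 members had at least 3 counts in 17 of 17 libraries, and all passed the filter of 20 counts in total that left 26946 genes. Protein-coding genes held 65.3% of the counts in WT vehicle 122 and 61.3% in KO vehicle 137, against 74.4% to 80.4% in the other libraries. Lung markers were abundant, and the summed level of 7 alveolar type 2 markers lay between 3169 and 10040 CPM. *Ppara* itself was not lower in the libraries labelled KO, with 10.4 ± 1.30 CPM (SD, n = 3) in KO vehicle, 10.1 ± 1.23 in KO PFOA, and 6.67 ± 0.763 (n = 2) in WT vehicle, so KO stands below for the libraries labelled KO. Which part of the gene is deleted was not given in the sources used here.

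Per length of exon sequence, the receptors of bacterial lipopolysaccharide and double-stranded RNA stood highest. *Tlr4* had 3.77 ± 0.361 CPM per kb (mean ± SD of the 6 group means), *Tlr3* 3.36 ± 0.456 and *Tlr2* 3.23 ± 0.196. *Tlr5*, the flagellin receptor, followed at 2.12 ± 0.177 CPM per kb. The endosomal members *Tlr8* (1.77 ± 0.571), *Tlr7* (1.68 ± 0.876), *Tlr13* (1.67 ± 0.638) and *Tlr9* (1.18 ± 0.417) came next. *Tlr1* (1.07 ± 0.317) and *Tlr6* (0.605 ± 0.158), the partners of TLR2, were lowest. Only *Tlr2* stood above its next neighbour, *Tlr5*, in 17 of 17 libraries, by 0.62 ± 0.378 on the log2 scale (mean ± SD within libraries). *Tlr4* was above *Tlr3* in 11 libraries, *Tlr3* above *Tlr2* in 9, *Tlr5* above *Tlr8* in 11, *Tlr8* above *Tlr7* in 10, *Tlr7* above *Tlr13* in 7, *Tlr13* above *Tlr9* in 13, *Tlr9* above *Tlr1* in 11 and *Tlr1* above *Tlr6* in 14. Except for *Tlr2* and *Tlr5* and for *Tlr13* and *Tlr9*, the mean difference between neighbours was smaller than its SD. With coding length in place of exon length 4 members took another place, and the first 4 and the last kept theirs.

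**Figure D1:**
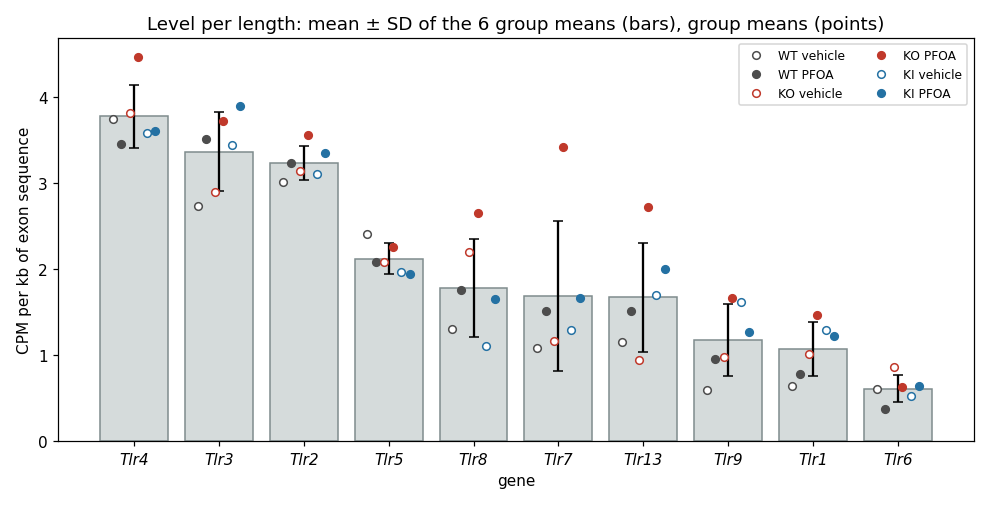
Level of each member per kb of exon sequence. Bars give the mean ± SD of the 6 group means and points the group means (open vehicle, filled PFOA). *Tlr4*, *Tlr3* and *Tlr2* lie above 3 CPM per kb, and the KO PFOA means of *Tlr7* (3.42) and *Tlr13* (2.72) stand apart from the other groups of these genes.

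The levels of the cell surface receptors *Tlr4*, *Tlr2* and *Tlr5* overlapped between PFOA and vehicle within each genotype. *Tlr4*, which binds lipopolysaccharide with MD-2, measured 24.4 and 17.2 CPM in the WT vehicle libraries, 18.8, 17.7 and 20.95 in WT PFOA, 13.1, 27.3 and 22.98 in KO vehicle, 27.8, 20.97 and 25.6 in KO PFOA, 18.9, 19.1 and 21.5 in KI vehicle and 24.0, 17.2 and 18.7 in KI PFOA. The lowest of these values was that of KO vehicle 137. *Tlr2*, which recognizes bacterial lipopeptides, ranged only from 6.81 to 11.4 CPM over the 17 libraries, a ratio of 1.67. *Tlr5* ranged from 6.84 to 13.2 CPM, with both ends in the WT PFOA group. Group means of *Tlr2* lay between 9.07 ± 1.48 (n = 2) in WT vehicle and 10.7 ± 0.211 CPM (n = 3) in KO PFOA, and those of *Tlr5* between 9.27 ± 1.47 (n = 3) in KI PFOA and 11.5 ± 1.44 (n = 2) in WT vehicle.

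**Figure D2:**
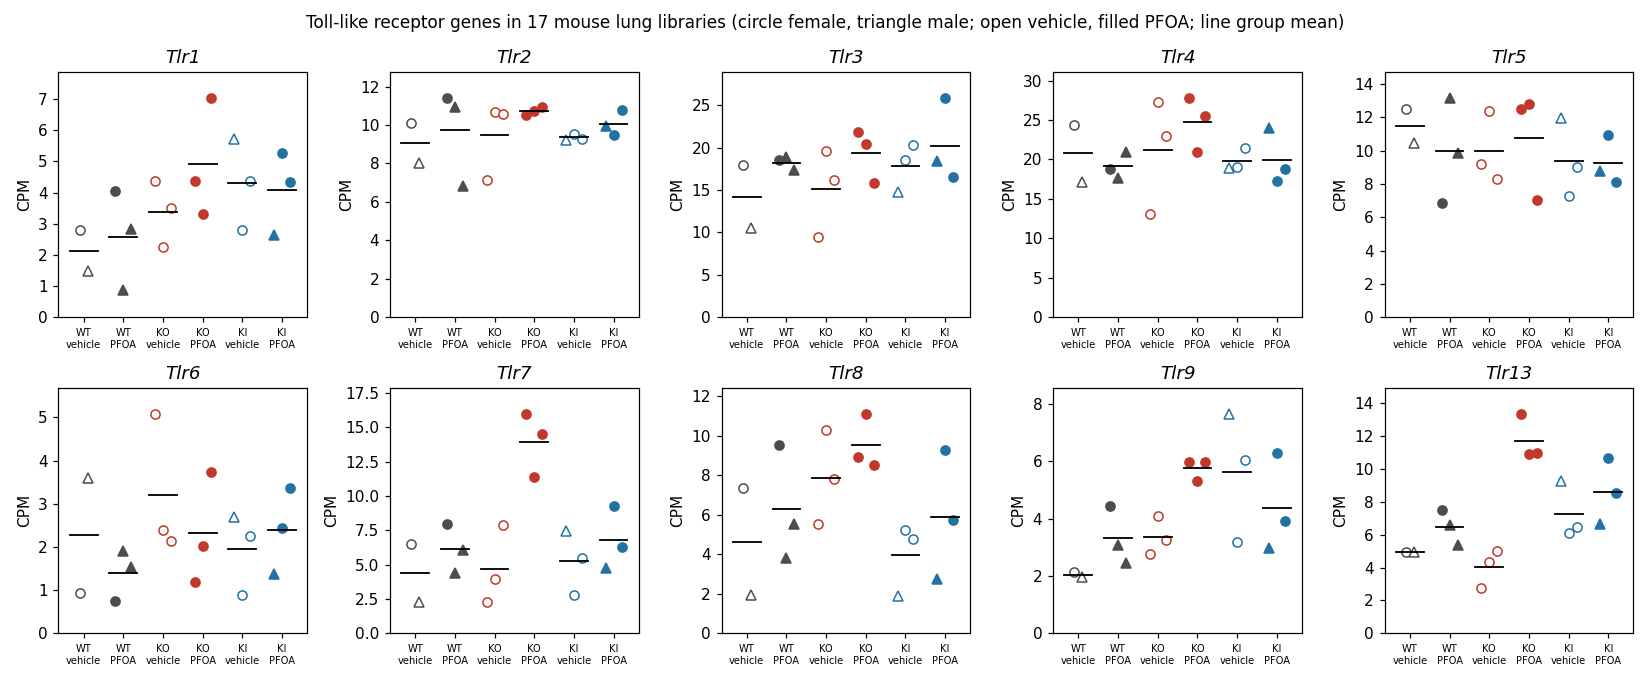
CPM of each member in each of the 17 libraries by group (circles female, triangles male; open vehicle, filled PFOA; lines are group means). The 3 KO PFOA libraries of *Tlr7* (11.4 to 15.9 CPM) and *Tlr13* (10.9 to 13.3 CPM) lie above all other libraries, while *Tlr2*, *Tlr4* and *Tlr5* overlap between PFOA and vehicle within each genotype.

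*Tlr1* and *Tlr6* pair with TLR2 to recognize lipopeptides of different acylation, and part of their reads could not be assigned to one of them. Both lie on the minus strand of chromosome 5 (mm10, *Tlr1* chr5:64924679-64933563, *Tlr6* chr5:64952031-64960097), and their coding sequences were 74.8% identical when aligned. The following 300 bases of coding exon, 5′ to 3′ on the minus strand from the GENCODE M21 annotation of mm10, are shown because nearly all of this stretch is shared. Capitals mark the only base that differs, C1467T, with positions counted from 1 at the *Tlr1* coding start.
Tlr1 (chr5:64925537-64925836): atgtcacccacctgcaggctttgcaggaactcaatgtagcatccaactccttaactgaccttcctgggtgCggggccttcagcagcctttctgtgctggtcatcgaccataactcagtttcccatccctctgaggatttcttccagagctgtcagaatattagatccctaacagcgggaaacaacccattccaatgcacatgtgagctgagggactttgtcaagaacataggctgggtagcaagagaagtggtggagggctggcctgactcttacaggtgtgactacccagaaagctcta
Tlr6 (chr5:64953828-64954127): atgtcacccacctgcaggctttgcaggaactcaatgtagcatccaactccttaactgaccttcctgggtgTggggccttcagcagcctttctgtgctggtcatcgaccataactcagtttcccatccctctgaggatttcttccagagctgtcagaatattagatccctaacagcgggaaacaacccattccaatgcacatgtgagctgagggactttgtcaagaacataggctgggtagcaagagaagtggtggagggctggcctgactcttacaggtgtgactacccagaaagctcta
Of the 2306 windows of 80 bases in the *Tlr1* coding sequence, the mean read length after trimming, 13.9% (320) also occurred in *Tlr6*, and no other pair of members shared such a window. In 13 of 17 libraries the estimated counts of both genes were not whole, while their sum was whole in 17 of 17 (within 0.001), from 19 to 72 counts. *Tlr1* took 30.1% to 83.1% of that sum. The summed level was 4.40 ± 0.953 CPM (n = 2) in WT vehicle, 3.99 ± 1.07 in WT PFOA, 6.58 ± 2.53 in KO vehicle, 7.23 ± 3.07 in KO PFOA, 6.25 ± 2.39 in KI vehicle and 6.46 ± 2.14 in KI PFOA (n = 3 each). Values of either gene alone are therefore uncertain, and the sum is given beside them where a sign depends on the split.

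Among the endosomal receptors, *Tlr7* and *Tlr13* were highest in KO mice on PFOA. *Tlr7*, a receptor of single-stranded RNA, measured 6.53 and 2.29 CPM in WT vehicle, 7.98, 4.39 and 6.04 in WT PFOA, 2.30, 3.94 and 7.91 in KO vehicle, 15.9, 11.4 and 14.5 in KO PFOA, 7.48, 2.80 and 5.48 in KI vehicle and 4.80, 9.25 and 6.29 in KI PFOA. *Tlr13*, a mouse receptor of bacterial ribosomal RNA with no human counterpart, measured 4.93 and 4.91 CPM in WT vehicle, 7.48, 6.58 and 5.40 in WT PFOA, 2.76, 4.36 and 5.02 in KO vehicle, 13.3, 10.9 and 10.9 in KO PFOA, 9.23, 6.11 and 6.47 in KI vehicle and 6.62, 10.7 and 8.53 in KI PFOA. For both genes the KO PFOA libraries were the 3 highest of the 17, a pattern noticed after the values were seen, which 0.356% of the 26946 genes tested showed. *Tlr9*, the receptor of unmethylated CpG DNA, measured 2.13 and 1.97 CPM in WT vehicle, 4.44, 3.07 and 2.44 in WT PFOA, 2.76, 4.08 and 3.27 in KO vehicle, 5.98, 5.32 and 5.98 in KO PFOA, 7.64, 3.18 and 6.05 in KI vehicle and 2.97, 6.30 and 3.91 in KI PFOA. Its PFOA libraries lay above the vehicle libraries in WT and KO and overlapped them in KI. *Tlr3*, the receptor of double-stranded RNA, ranged from 9.44 CPM in KO vehicle 137 to 25.8 in KI PFOA 80. An antisense gene overlaps an exon of *Tlr3* on the opposite strand, its estimated counts were not whole in 6 libraries, and whether the counting used the strand was not given in the sources used here.

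A gene was called where its fold change exceeded 2 and its Benjamini-Hochberg adjusted p from edgeR lay under 0.2. No member was called in any comparison of PFOA with vehicle. Over all 26946 genes the share called was likewise 0% in each genotype and in the additive model of the 3 genotypes. At an unadjusted p under 0.05, 0 of 10 members were higher in WT (3.12% of all genes), 3 in KO (3.74%), 0 in KI (1.47%) and 2 over the 3 genotypes (3.80%), and none was lower. PFOA libraries lay above all vehicle libraries for 2 of 10 members in WT (11.6% of all genes), 3 in KO (6.82%) and 0 in KI (4.45%), and below them for none. The shares of all genes in the lower direction were not counted. The median log2 fold change of the 10 members was 0.31 in WT, 0.30 in KO, 0.14 in KI and 0.26 over the 3 genotypes, against 0.04, -0.03, 0.01 and -0.01 over all genes. The WT median was -0.07 without WT vehicle 122 and 0.002 without WT PFOA 50.

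The 3 members with an unadjusted p under 0.05 in KO were *Tlr13*, *Tlr7* and *Tlr9*. *Tlr13* had a log2 fold change of 1.49 (SE 0.26, 95% confidence interval 0.94 to 2.04, a 2.81-fold difference), the smallest p of all genes tested there, yet its edgeR adjusted p was 0.434. DESeq2 on the same genes gave 1.45 with an adjusted p of 0.0272 and called *Tlr13* alone of the members, among the 0.252% of all genes that it called. *Tlr7* had a log2 fold change of 1.51 in KO (SE 0.42, interval 0.62 to 2.39, edgeR adjusted p = 0.464, DESeq2 adjusted p = 0.261) and *Tlr9* one of 0.75 (SE 0.35, edgeR adjusted p = 0.504). Without KO vehicle 137 the log2 fold changes were 1.31 for *Tlr13*, 1.22 for *Tlr7* and 0.65 for *Tlr9*. The i5 sequencing index was shared by the 3 libraries of KO PFOA and differed from those of KO vehicle. With the index as a covariate *Tlr13* was at 1.31, *Tlr7* at 1.58 and *Tlr8* at 1.72 in place of 0.26, with edgeR adjusted p from 0.59 to 0.681.

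In WT the log2 fold changes were 0.40 (SE 0.30) for *Tlr13*, 0.46 (SE 0.49) for *Tlr7* and 0.69 (SE 0.43) for *Tlr9*. The WT value of *Tlr7* was 1.42 without WT vehicle 107, -0.08 without WT vehicle 122 and 0.23 without WT PFOA 50, and that of *Tlr9* was 0.43 without WT PFOA 50. With the i5 index as a covariate the WT values were 0.05 for *Tlr13*, 0.24 for *Tlr7* and 0.16 for *Tlr9*. In KI, without that covariate, the log2 fold changes were 0.25 (SE 0.25) for *Tlr13*, 0.38 (SE 0.43) for *Tlr7* and -0.35 (SE 0.34) for *Tlr9*. Over the 3 genotypes, *Tlr13* was at 0.72 (SE 0.19, edgeR adjusted p = 0.394) and *Tlr7* at 0.82 (SE 0.27, edgeR adjusted p = 0.468). The PFOA effects themselves were then compared between genotypes. No member passed the threshold in any of these differences, and neither did any of all genes (0%). The PFOA effect on *Tlr13* was greater in KO than in WT by 1.09 on the log2 scale (SE 0.39, edgeR unadjusted p = 0.0117, adjusted p = 0.669) and smaller in KI than in KO by 1.25, a difference of -1.25 (SE 0.36, edgeR unadjusted p = 0.00273, adjusted p = 0.909). For *Tlr9* the difference KI minus KO was -1.10 (SE 0.49, edgeR unadjusted p = 0.0366, adjusted p = 0.909). Thus 1 of 10 members had an unadjusted p under 0.05 in KO minus WT (7.46% of all genes), 2 in KI minus KO (5.42%) and 0 in KI minus WT (4.58%).

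**Figure D3:**
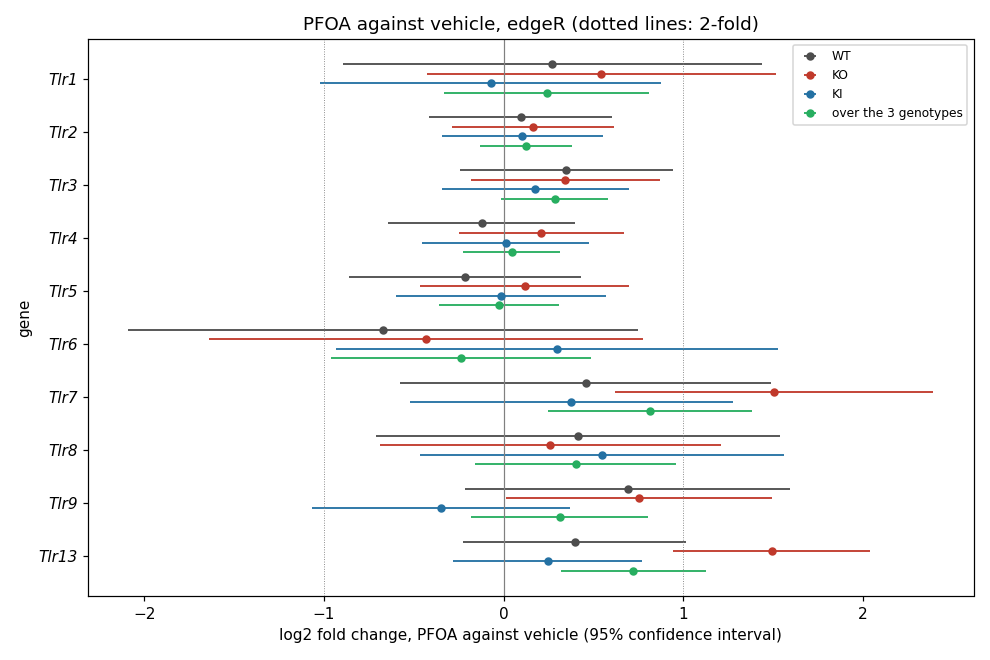
Log2 fold change of PFOA against vehicle with its 95% confidence interval for each member by genotype and over the 3 genotypes (dotted lines mark 2-fold). The intervals of *Tlr7* and *Tlr13* in KO lie above 0, from 0.62 and 0.94 on, and those of *Tlr2*, *Tlr4*, *Tlr5* and *Tlr6* span 0 in all 4 comparisons.

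The 95% confidence intervals of the other members included 0 in WT, KO, KI and over the 3 genotypes. Over the 3 genotypes they ran from -0.13 to 0.38 for *Tlr2*, from -0.01 to 0.58 for *Tlr3* and from -0.96 to 0.49 for *Tlr6*. Log2 fold changes of *Tlr4* were -0.12 in WT, 0.21 in KO, 0.01 in KI and 0.04 over the 3 genotypes, and those of *Tlr2* were 0.09, 0.16, 0.10 and 0.12. *Tlr5* was at -0.21, 0.12, -0.01 and -0.03, and *Tlr3* at 0.35, 0.34, 0.18 and 0.28. *Tlr8* was at 0.41, 0.26, 0.55 and 0.40. For *Tlr1* they were 0.27, 0.54, -0.07 and 0.24 and for *Tlr6* -0.67, -0.43, 0.30 and -0.24, while the sum of both gave -0.13, 0.15, 0.05 and 0.04. SEs over the 3 genotypes ran from 0.12 for *Tlr2* to 0.35 for *Tlr6*.

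Markers of several immune cell types were also higher in the KO PFOA libraries than in the KO vehicle libraries. The summed level of 8 monocyte and interstitial macrophage markers was 82.7 to 160.6 CPM in KO vehicle and 187.5 to 222.8 in KO PFOA. The value of 82.7 was that of KO vehicle 137, and the other KO vehicle libraries were at 150.3 and 160.6. The sum was 101.9 to 116.7 in WT vehicle, 143.0 to 154.7 in WT PFOA, 110.6 to 192.8 in KI vehicle and 154.9 to 172.2 in KI PFOA. Of these 8 markers 7 had a log2 fold change above 0 in KO, 3 of them at an unadjusted p under 0.05, with a median of 0.65 and none called. The 10 alveolar macrophage markers summed to 112.9 to 313.8 CPM in KO vehicle and 392.5 to 471.2 in KO PFOA, with 10 of 10 above 0 and 2 at an unadjusted p under 0.05. Here too the lowest value was that of KO vehicle 137, with the others at 312.5 and 313.8. This sum was 167.7 to 390.5 in WT vehicle, 304.1 to 483.0 in WT PFOA, 232.0 to 262.6 in KI vehicle and 262.9 to 406.0 in KI PFOA. Neutrophil markers (8 measured of 9) went from 22.9 to 30.1 up to 62.5 to 78.9 CPM, B cell markers (8) from 32.7 to 58.4 up to 71.2 to 145.8, and T and NK cell markers (7) from 20.97 to 26.8 up to 38.3 to 59.5. The 32.7 of the B cell markers was that of KO vehicle 137, with the others at 50.5 and 58.4. Conventional dendritic cell markers (6) were at 112.2 to 125.7 CPM in KO vehicle, lowest in KO vehicle 137, and at 130.7 to 162.5 in KO PFOA. Most of this sum was *Clec9a* (median over the libraries 100.4 CPM, against 132.7 for the sum). Of these 6 markers 5 had a log2 fold change above 0 in KO, with a median of 0.28 and 0 at an unadjusted p under 0.05. In WT, where *Tlr9* and *Tlr13* did not overlap, B cell markers were at 9.17 to 23.3 CPM with vehicle and 25.1 to 38.3 with PFOA, and T and NK cell markers at 6.72 to 17.1 and 23.5 to 30.5. In KI, B cell markers were at 20.9 to 179.2 CPM with vehicle and 34.25 to 86.6 with PFOA. Of these 8 markers 0 had a log2 fold change above 0 in KI, with a median of -1.055. T and NK cell markers in KI were at 21.5 to 33.5 CPM with vehicle and 26.8 to 41.6 with PFOA. The plasmacytoid dendritic cell markers (5), the cells best known for *Tlr7* and *Tlr9*, overlapped between KO vehicle (10.8 to 23.03 CPM) and KO PFOA (19.0 to 24.7). The value of 23.03 was that of KO vehicle 137, and the other KO vehicle libraries were at 10.8 and 12.8. Of these 5 markers 5 had a log2 fold change above 0 in KO, 1 at an unadjusted p under 0.05, with a median of 0.59. No marker of these lists was at 0 in every library of a KO group. Their part in the levels of *Tlr7*, *Tlr9* and *Tlr13* was not tested.

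**Figure D4:**
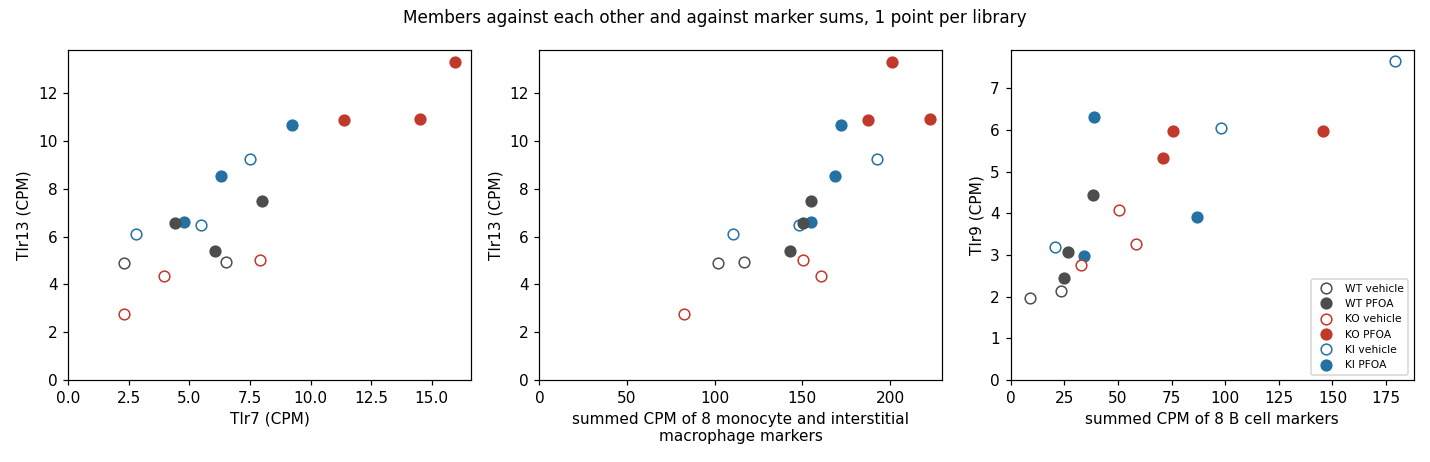
Left, *Tlr13* against *Tlr7* in CPM, 1 point per library; middle, *Tlr13* against the summed CPM of 8 monocyte and interstitial macrophage markers; right, *Tlr9* against the summed CPM of 8 B cell markers (colours are genotypes; open vehicle, filled PFOA). The KO PFOA libraries hold the 3 highest values of *Tlr13* and *Tlr7*, and the KI vehicle library with 179.2 CPM of B cell markers has the highest *Tlr9*, 7.64 CPM.

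The genotypes were compared over both exposures in a model with genotype and exposure terms. No member was called, while edgeR called 2.36% of all genes in KO against WT, 1.37% in KI against WT and 0.00742% in KI against KO. At an unadjusted p under 0.05, 3 of 10 members were higher in KO than in WT (7.43% of all genes) and 3 in KI than in WT (5.66%). In KO these were *Tlr1* with a log2 fold change of 0.77 (SE 0.35), *Tlr7* with 0.76 (SE 0.33) and *Tlr9* with 0.73 (SE 0.30), at edgeR adjusted p from 0.272 to 0.337. In KI they were *Tlr9* with 0.88 (SE 0.30, edgeR adjusted p = 0.227), *Tlr1* with 0.80 (SE 0.35, adjusted p = 0.435) and *Tlr13* with 0.52 (SE 0.24, adjusted p = 0.488). The sum of *Tlr1* and *Tlr6* was at 0.72 (SE 0.28) in KO and 0.61 (SE 0.28) in KI against WT. With the i5 index as a covariate, which is partly confounded with sex, *Tlr9* was at 0.18 in KO and 0.57 in KI, and *Tlr7* at 0.41 in KO. All KO mice were female while WT and KI held both sexes. With sex as a covariate, KO against WT was 0.555 for *Tlr1*, 0.576 for *Tlr7* and 0.674 for *Tlr9*, at edgeR adjusted p from 0.509 to 0.656. In KI against WT that fit gave 0.863 for *Tlr9*, 0.738 for *Tlr1* and 0.505 for *Tlr13*. Without WT vehicle 107, *Tlr7* passed the threshold in KO against WT (log2 fold change 1.04), and *Tlr9* passed it in KI against WT without KI PFOA 57 (1.06) or without WT PFOA 50 (1.07). In KI against KO, 1 member had an unadjusted p under 0.05 (4.78% of all genes), *Tlr8*, with a log2 fold change of -0.83 (SE 0.32, edgeR adjusted p = 0.9997).

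All KO mice were female, and *Tlr8* differed with sex. This comparison was added after the values were seen, with 1 coefficient for each group and 1 for sex over 12 females and 5 males. Since the KO groups held females only, the sex difference rests on the 6 females and 5 males of WT and KI. The KO libraries entered only the scaling and the estimate of spread. *Tlr8*, which lies on the X chromosome (mm10 chrX:167242696-167264329), was higher in females by 1.38 on the log2 scale (SE 0.23, edgeR adjusted p = 0.0389). It was 1 of 10 genes called (0.0371% of all genes), beside 4 genes of the Y chromosome, *Xist* and *Gm26992* of the X chromosome, and *Corin*, *Nppa* and *Wnk2*. *Nppa* was 1 of 5 cardiac muscle markers, whose sum was highest in 3 male libraries, KI vehicle 102 (6884 CPM), KI PFOA 57 (5853) and WT PFOA 65 (3946). The males WT vehicle 122 and WT PFOA 56 were at 416 and 507 CPM, and the females at 269 to 2191. *Tlr8* had a Pearson r of -0.52 with this sum over the 17 libraries, and the part of cardiac tissue in the sex difference was not tested. In the groups that held both sexes, *Tlr8* measured 7.33 CPM in the female and 1.97 in the male on WT vehicle, 9.50 in the female and 3.80 and 5.53 in the males on WT PFOA, 5.22 and 4.78 in the females and 1.91 in the male on KI vehicle, and 9.25 and 5.73 in the females and 2.74 in the male on KI PFOA. Every female library was thus above every male library within each of the 4 groups, as held for 1.97% of all genes and for no other member. The 6 KO libraries, all female, lay between 5.53 and 11.1 CPM. The other members of the X chromosome, *Tlr7* (chrX:167304929-167330558) and *Tlr13* (chrX:106143204-106160493), had log2 differences of 0.37 (SE 0.33) and 0.08 (SE 0.20) and were not called. Leaving out 1 WT or KI library at a time kept the *Tlr8* difference between 1.25 and 1.54, with edgeR adjusted p from 0.0248 to 0.362; it no longer passed 0.2 without KI vehicle 102 (0.21) or without KI PFOA 57 (0.362), both male. A fit of the WT and KI libraries only gave a *Tlr8* difference of 1.37 (SE 0.24, edgeR adjusted p = 0.0952). With sex as a covariate, the log2 fold change of *Tlr8* in KI against KO was -0.52 in place of -0.83. *Xist* and *Ddx3y* matched the sex label in 17 of 17 libraries.

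**Figure D5:**
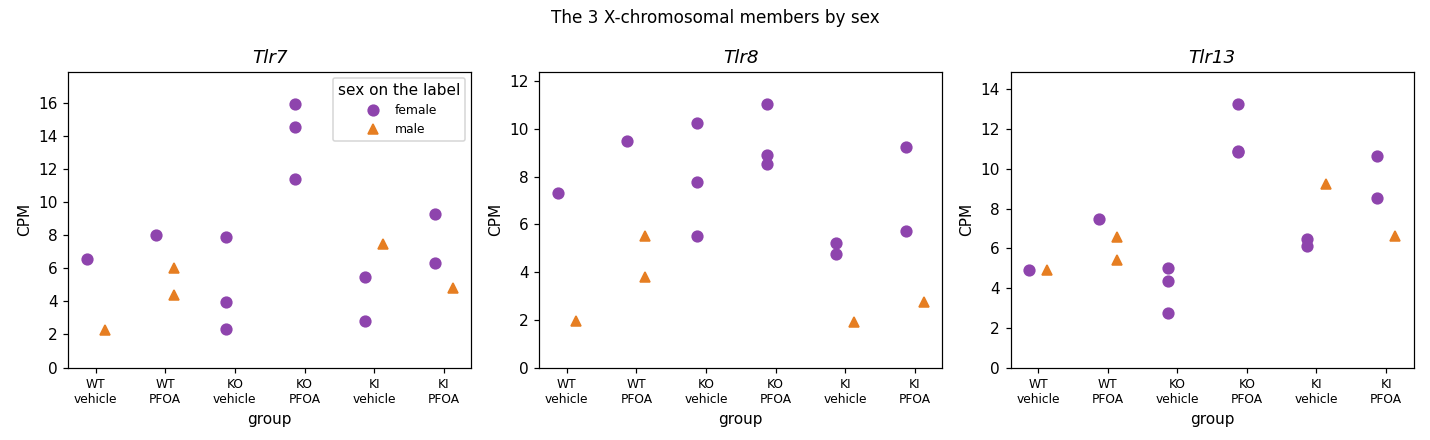
CPM of *Tlr7*, *Tlr8* and *Tlr13* by group and sex (circles female, triangles male). For *Tlr8* the female libraries lie above the male libraries in each of the 4 groups that hold both, and the KO groups hold females only.

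Of 53 further genes of the pathway, 51 were tested, and 0 were called by edgeR or by DESeq2 in PFOA against vehicle in WT, KO or KI or over the 3 genotypes. At an unadjusted p under 0.05, 5 were higher and 0 lower in KO (3.74% of all genes were higher), 2 higher and 1 lower in WT (3.12% higher), 0 either way in KI (1.47% higher), and 1 higher and 0 lower over the 3 genotypes (3.80% higher). For the lower direction the share of all genes was not counted. The 5 in KO were *Unc93b1*, which carries the nucleic acid receptors to endosomes (log2 fold change 0.53, SE 0.17), *Irf5*, a transcription factor downstream of MyD88 (0.80, SE 0.26), *Nfkbia*, the inhibitor of NF-κB (0.52, SE 0.20), *Il1b*, an inflammatory cytokine (1.28, SE 0.54), and *Ly86*, the partner of the receptor homologue CD180 (0.97, SE 0.45), with edgeR adjusted p from 0.469 to 0.503. *Unc93b1* measured 48.1 ± 6.56 CPM in KO vehicle and 69.7 ± 5.32 in KO PFOA (n = 3 each). Over the 3 genotypes *Irf7*, which drives type I interferon genes, was at 0.33 (SE 0.16, edgeR adjusted p = 0.6).

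Within the groups of the pathway, the genes with the smallest p over the 3 genotypes had these log2 fold changes. Of the 6 co-receptors and ligand carriers, *Cd180* was at 0.45 (SE 0.24) and *Cd36* at 0.32 (SE 0.18). Of the 4 trafficking genes, *Unc93b1* was at 0.20 (SE 0.11) and the transporter gene *Slc15a4* at -0.05 (SE 0.09). Of the 14 adaptors and kinases, the ubiquitin ligase gene *Traf6* was at 0.15 (SE 0.10) and the kinase gene *Irak2* at -0.11 (SE 0.09), and *Irf3*, of 10 genes for IKK kinases and transcription factors, was at -0.14 (SE 0.09). Of the 7 negative regulators, *Tollip* was at 0.17 (SE 0.10) and *Nfkbia* at 0.17 (SE 0.13). The other mouse receptors *Tlr12* and *Tlr11*, which recognize profilin of parasites, were at -0.41 (SE 0.28) and -0.32 (SE 0.25), with group means from 1.53 to 5.43 CPM. *Tlr11* was the gene with the lower value in WT, at -1.24 (SE 0.43, edgeR adjusted p = 0.544), where its libraries lay between 3.33 and 3.93 CPM with vehicle and between 1.03 and 2.05 with PFOA. It was at 0.13 (SE 0.37) in KO and -0.10 (SE 0.37) in KI, and the difference KO minus WT was 1.37 (SE 0.57, edgeR adjusted p = 0.669). Of the 10 response genes 8 were tested. *Il12b* and *Il6*, the 2 with the smallest p, were mostly under 3 counts per library, so no fold is given.

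Between genotypes, 3 of the 51 pathway genes rose in KO against WT (2.36% of all genes were called) and 2 in KI against WT (1.37%), and none fell. With the i5 index as a covariate *Irf7* in KO was the 1 call that remained, and those of *Cd180* and *Ly86* were lost in both. *Irf7* rose in KO with a log2 fold change of 1.38 (SE 0.20, edgeR adjusted p = 0.000465), from 9.16 ± 1.37 (n = 2) and 9.81 ± 1.64 CPM (n = 3) in WT vehicle and WT PFOA to 20.1 ± 2.07 and 29.2 ± 12.7 in the KO groups (n = 3 each). *Cd180*, a lipopolysaccharide receptor homologue of B cells and macrophages, rose by 1.17 in KO (SE 0.31, edgeR adjusted p = 0.0545) and 1.04 in KI (SE 0.31, adjusted p = 0.144), and *Ly86* by 1.18 (SE 0.36, adjusted p = 0.103) and 1.19 (SE 0.36, adjusted p = 0.152). In KI *Irf7* was at 0.78 (SE 0.20, edgeR adjusted p = 0.0721), under 2-fold. B cell markers summed to 9.17 to 38.3 CPM in the 5 WT libraries and to 32.7 to 145.8 in the 6 KO libraries and 20.9 to 179.2 in the 6 KI libraries, and their part in these values was not tested.

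Across the 17 libraries, the members did not move as one. Of the 45 pairs, 36 had a Pearson r above 0 on the log2 CPM scale, with a median of 0.26. The highest were *Tlr7* with *Tlr13* (r = 0.81, Spearman rho = 0.80, permutation p = 1.2e-04 and 2.3e-04, adjusted over the 45 pairs 0.0054 and 0.0103), *Tlr9* with *Tlr13* (r = 0.73, rho = 0.71, adjusted permutation p = 0.016 and 0.0304) and *Tlr1* with *Tlr9* (r = 0.67, rho = 0.72, adjusted permutation p = 0.0336 and 0.0304). Without the 2 libraries farthest from the median of the first gene r was 0.75, 0.73 and 0.69, and on deviations from the group means it was 0.73, 0.77 and 0.45. The lowest were *Tlr3* with *Tlr6* (r = -0.57, rho = -0.49, adjusted permutation p = 0.104 and 0.242), *Tlr4* with *Tlr6* (r = -0.38, rho = -0.34) and *Tlr1* with *Tlr5* (r = -0.38, rho = -0.29), the last pairs at an adjusted permutation p of 0.271 for r. Without the 2 farthest libraries these were at -0.21, -0.05 and -0.21. The permutations shuffled all 17 libraries without regard to group, so shifts between groups enter the permutation p-values. The points are libraries that differ in depth and in the share of protein-coding counts, and the part of these in the correlations was not tested.

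The genes whose levels followed a member most closely were named from all genes of at least 5 CPM on average, by Pearson r over the 17 libraries, as a description. *Tlr7* went with *Cybb*, the catalytic subunit of the phagocyte NADPH oxidase (r = 0.93, rho = 0.95), with *Csf2rb*, a shared cytokine receptor chain (0.91, 0.90), and with *Tnfrsf1b*, a receptor of TNF (0.90, 0.88). *Tlr13* went with *Adgre4*, an adhesion receptor of myeloid cells (0.88, 0.88), *Cotl1* (0.87, 0.85) and *Mrtfa* (0.87, 0.88). *Tlr9* went with *Runx3*, a lymphocyte transcription factor (0.90, 0.85), *Grap2* (0.89, 0.91) and *Prkcb* (0.89, 0.85), and *Tlr1* with *Stat4* (0.89, 0.78) and *Ipcef1* (0.82, 0.86). *Tlr8* went with the noncoding transcripts *5530601H04Rik* (0.89, 0.93) and *Xist* (0.82, 0.77) and with the potassium channel gene *Kcnn3* (0.85, 0.83). *Tlr3* went with *Atrn* (0.95, 0.89), *Ly6a* (0.94, 0.74) and *Cog5* (0.94, 0.85), *Tlr4* with *Phf6* (0.86, 0.76), *Ola1* (0.86, 0.88) and *Sos1* (0.85, 0.81), and *Tlr2* with *Septin4* (0.87, 0.85), *Fzd7* (0.86, 0.76) and *Man2a2* (0.84, 0.69). *Tlr5* had the lowest values, with *Cnnm3* (0.69, 0.73), *Timm50* (0.68, 0.66) and *Gm28323* (0.67, 0.68), and *Tlr6* went with *Dna2* (0.88, 0.86), *Mblac2* (0.81, 0.79) and *Arhgef19* (0.79, 0.79).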

How the data were processed

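Lung total RNA (6 ng) was made into libraries with a stranded low-input total RNA kit. After quality trimming, the authors used STAR 2.6 in Partek Flow to map reads to mm10, estimated transcript abundance by expectation maximization and deposited the resulting estimated counts per gene, not normalized. Their annotation release and strand setting are not given in the sources used here.

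Counts were rounded, and 26946 genes reached the minimum of 20 counts summed over the libraries (4299 others were not tested). edgeR 4.0.16 in R 4.3.3 fitted quasi-likelihood models over all 17 libraries with TMM factors, with 1 coefficient per group or with genotype and exposure terms, and Benjamini-Hochberg adjustment over all genes tested. Calls needed an adjusted p under 0.2 and a fold over 2. CPM were TMM-scaled, and log2 CPM used a prior count of 2. Named were all 10 members, in genotype comparisons and differences those with an unadjusted p under 0.05, every pathway gene called, up to 2 genes of each pathway group by p over the 3 genotypes, the 3 genes most like each member (1 of them is not reported here), and the 3 highest and lowest pairs. Pathway genes named for other reasons (those at an unadjusted p under 0.05 in KO) were picked once their values were known. The members and lists were chosen with earlier results of these data known. Permutation tests of pairs used 100000 permutations of the libraries, not restricted within groups.

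Alternatives were DESeq2 1.42.0 (on the same genes, and with default filtering), RLE factors, no filter, filterByExpr, sex or i5 index as a covariate, robust estimation, only the groups compared, other thresholds and leaving out single libraries. Chosen later, with the values known, were the sum of *Tlr1* and *Tlr6*, a fit without both libraries of low protein-coding share, and the sex comparison. In simulated counts with 200 genes changed 4-fold, edgeR recovered 84% in WT with 19 other calls, 99% over the 3 genotypes and 93% for sex. The changed genes were drawn from those with at least 200 counts in total. Neither a smaller fold nor PFOA against vehicle in KO was simulated, so these shares do not give the power for such differences. Each library came from a separate mouse and counted once, and no pair of replicates agreed within sampling noise (chi-square per degree of freedom at least 6.29 in 16 pairs). The confidence intervals of log2 fold changes, like the edgeR p-values, rest on the spread between these mice. Of the names in the table, 96.7% occurred once in GENCODE M21, and all 10 members had the same start there. Sequences were handled with Biopython 1.88 and tables with pandas 2.3.3.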

Additional observations from a re-analysis of the deposited data

How the results depend on the processing

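No paired analysis was possible because the groups share no replicate numbers. The number of Toll-like receptor genes called in PFOA against vehicle was 0 in every setting run in WT, in KI and over the 3 genotypes. In KO it was 1 (*Tlr13*) with DESeq2 on the same genes and with its default filters, and 0 to 1 with 1 library left out (1 without KI vehicle 116, edgeR adjusted p = 0.199). It was 0 to 1 with 1 library left out in KO and in KI against WT, and 0 in KI against KO and in the differences. The median log2 fold change of the members in WT ranged from -0.066 to 0.578 with 1 library left out and was -0.068 without WT vehicle 122 and KO vehicle 137. The KO median became 0.595 once the i5 index was a covariate, and the WT median was lowest without WT vehicle 122 and highest without WT vehicle 107. Pathway genes called in KO against WT, 3 in the main analysis, numbered 1 at an adjusted p under 0.05, 9 without a fold threshold and 1 with the i5 index. In KI against WT, 2 in the main analysis, they numbered 0 at an adjusted p under 0.05, 6 without a fold threshold, 0 with the i5 index, 0 without WT vehicle 122 and KO vehicle 137, and 0 to 3 with 1 library left out. With 1 library left out they numbered 0 to 2 in PFOA against vehicle in WT, 0 to 1 in KO minus WT and 0 to 2 in KI minus WT. The *Tlr8* sex difference ranged from 1.25 to 1.54. By coding length 4 members, and by longest transcript 4, took another place by level. The causes were not tested.

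Of 50 single-gene log2 fold changes, 18 changed sign in some alternative, none of them past the threshold. Leaving out 1 library gave, in WT, -0.194 to 0.822 for *Tlr1*, -0.053 to 0.298 for *Tlr2*, -0.343 to 0.157 for *Tlr4*, -0.46 to 0.011 for *Tlr5*, -1.36 to 0.576 for *Tlr6*, -0.079 to 1.421 for *Tlr7* and -0.211 to 1.676 for *Tlr8*. In KO it gave -0.024 to 0.43 for *Tlr4*, -0.028 to 0.339 for *Tlr5* and -0.933 to 0.02 for *Tlr6*. In KI it gave -0.31 to 0.185 for *Tlr1*, -0.037 to 0.302 for *Tlr3*, -0.144 to 0.107 for *Tlr4*, -0.172 to 0.192 for *Tlr5* and -0.062 to 0.6 for *Tlr6*. Over the 3 genotypes it gave -0.039 to 0.119 for *Tlr4*, -0.08 to 0.04 for *Tlr5* and -0.386 to 0.028 for *Tlr6*. The i5 index as a covariate gave -0.146 for *Tlr2* and 0.135 for *Tlr4* in WT, -0.496 for *Tlr5* in KO, and -0.116 for *Tlr4* and 0.186 for *Tlr5* in KI. Sex as a covariate gave 0.005 for *Tlr5* in KI. Without WT vehicle 122 and KO vehicle 137, values in WT were -0.092 for *Tlr1*, -0.055 for *Tlr2*, 0.572 for *Tlr6*, -0.08 for *Tlr7* and -0.212 for *Tlr8*, in KO -0.023 for *Tlr4* and 0.02 for *Tlr6*, and over the 3 genotypes -0.083 for *Tlr4* and 0.237 for *Tlr6*. The sum of *Tlr1* and *Tlr6* gave -0.129 in WT against *Tlr1*, 0.053 in KI against *Tlr1*, and 0.153 in KO and 0.041 over the 3 genotypes against *Tlr6*. At 6 to 47.3 counts a library, *Tlr1* and *Tlr6* limit what their comparisons can show.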
